A study of Rattus norvegicus with 8 samples.

Results

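Cholesterol and fatty acid synthesis was followed in the pituitary of lactating Wistar rats through 30 genes: 17 of a sterol arm, 5 regulators and 8 of a fatty acid arm, among 17364 genes tested. They were chosen by name, as every array spot other than a control spot whose gene name matched 1 of 33 listed symbols. No measured value is part of that rule, but the symbols were chosen with earlier results of these data known. Msmo1 was found under its older symbol Sc4mol, and no spot carried the names Acat2 or Sc5d. Messenger RNA of pituitaries was measured on 8 single-colour Agilent arrays at postpartum day 7, in 4 samples of TCDD-exposed dams and 4 samples of control dams. TCDD is a dioxin that activates the aryl hydrocarbon receptor. The labels used here give neither its dose nor the day of exposure, both groups were lactating Wistar dams at the same day, and their ages are not in the labels. The comparison asks whether these transcripts differ in the mother's pituitary after dioxin. The 4 TCDD arrays lay on 1 slide and the 4 control arrays on another, and every difference given here is thus also a difference between slides: the effects cannot be told apart.

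Cells make cholesterol from acetyl-CoA by way of mevalonate and squalene, and make saturated and unsaturated fatty acids from the same precursor. Transcription of both routes is driven by the SREBP factors, which are held in the endoplasmic reticulum with their escort Scap. Insig proteins retain that complex when sterols are plentiful, and a fall in sterol lets SREBP reach the Golgi, where it is cut and released to the nucleus. Endocrine cells of the pituitary use these lipids for the membranes of their secretory granules, and lipid metabolism of the liver is a known target of dioxin in rodents.

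None of the 30 genes passed the test across all genes (limma, adjusted p from 0.31 upward), where 14 of 17364 genes, or 0.0806%, did, 10 higher and 4 lower (5 and 4 with median centring of the arrays). Among the 30, TCDD means exceeded control means for 18 and fell short for 12 (60.0% higher, beside 56.4% of all genes tested), and the differences were small. The median log2 change was 0.03 in the sterol arm, 0.0030 in the regulators and 0.02 in the fatty acid arm, beside 0.02 over all genes tested. At an unadjusted p under 0.05 stood Mvd and Stard4, both higher, or 2 of 30, where the share over all genes was 10.7% in either direction and 7.76% higher. By the probe used in the fit, Mvd was the 1 member whose 4 TCDD values all lay above the 4 control values, a pattern held by 5.18% of all genes. The opposite pattern, held by 1.91% of all genes, occurred in 0 of the 30. All 30 genes were well above background on all 8 arrays, so none entered through 1 group alone, and no spot was saturated.

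The 95% confidence intervals show what size of difference between the groups these arrays leave room for. They cover dioxin and slide together and bound neither effect alone. For 26 of the 30 genes the interval lay inside a 1.5-fold change in both directions (86.7%, beside 79.1% of all genes tested). The 4 others were Stard4, Acaca, Elovl6 and Fads1. For all 30 it lay inside a 2-fold change, as it did for 93.2% of all genes tested. Each interval covers its own gene and not the 30 together. In bulk tissue fewer cells of a type and less RNA per cell cannot be told apart. The labels state 4 samples a group without saying that each was a separate animal, and the p-values rest only on how far these arrays scatter, which may be technical.

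**Figure D1:**
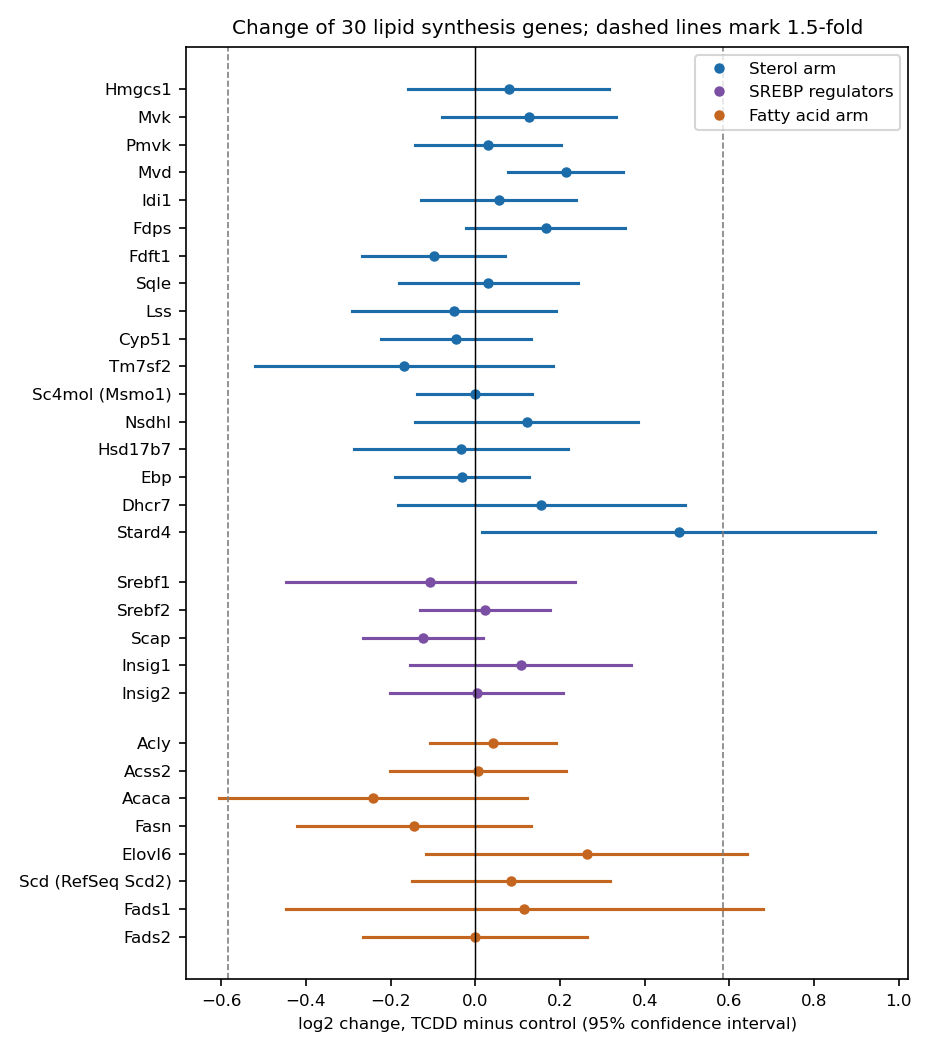
Log2 change of each gene, TCDD minus control, with its 95% confidence interval from limma (4 arrays per group), genes in rows and coloured by arm. The dashed lines mark 1.5-fold; 26 of 30 intervals lie between them, and the interval of Stard4 reaches from 0.02 to 0.95.

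The regulators come first in the pathway. All signals below are log2 of the array's processed signal over its 75th percentile, so 0 equals that percentile, and values belong to 1 probe and are not set against other genes. Srebf2, the factor that drives sterol genes, had 1.01, 1.05, 0.94 and 1.09 on the TCDD arrays, against 1.11, 0.92, 0.95 and 1.02 on the control arrays. The groups overlapped fully, with a log2 change of 0.02 (SE 0.07, limma, adjusted p = 0.94). Srebf1, the gene for the factors that drive fatty acid genes most, had 0.50, -0.11, 0.17 and 0.34 after TCDD and 0.49, 0.22, 0.50 and 0.12 in controls. TCDD replicate 2 was the lowest of the 8 arrays for Srebf1, and the change of -0.11 (95% interval -0.45 to 0.23) became 0.0061 without that array. The probe of Srebf1 cannot be assigned here to either of the proteins, SREBP-1a and SREBP-1c, that the gene encodes.

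Scap, the escort of SREBP, stood at 0.54, 0.48, 0.50 and 0.43 on the TCDD arrays, against 0.63, 0.60, 0.70 and 0.51 on the control arrays. Control replicates 1 to 3 lay above every TCDD array, and control replicate 4 lay among them, giving a log2 change of -0.12 (SE 0.06, limma, adjusted p = 0.54; exact two-sided permutation p = 0.057). Insig1, which retains Scap and is itself an SREBP target, had -0.84, -1.02, -1.05 and -0.75 after TCDD and -0.96, -0.86, -1.31 and -0.97 in controls, a change of 0.11 (SE 0.11). Insig2, the second retention protein, was read by 2 probes that differed. By the brighter one it had -1.33, -1.28, -1.12 and -1.45 on TCDD arrays and -1.24, -1.25, -1.46 and -1.24 on control arrays, a change of 0.0030 (SE 0.09). By the other it had -2.55, -2.53, -2.40 and -2.34 after TCDD, all above -2.58, -2.56, -2.59 and -2.71 in controls, a change of 0.16 (SE 0.07, limma, adjusted p = 0.50 over all probes kept; exact two-sided permutation p = 0.029, the smallest that 4 against 4 arrays can give). Both probes map to chromosome 13 (rn4, the build of the probe positions per the file headers), from 33333061 to 33333298 and from 33331220 to 33331279, and which transcripts each detects was not determined.

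The promoters of these genes show what they share in sequence beyond function. For 23 of the 30 genes RefSeq (GRCr8) gave the 250 bases before the start, in 24 windows since Srebf1 has 2 starts. A set of 4 motifs was searched on both strands: the core of the sterol regulatory element TCACCCCAC, its looser form TCACNCCAC, which includes the core, the CCAAT box CCAAT, bound by NF-Y, a partner of SREBP, and the E-box CACGTG. The CCAAT box was found in 19 of 23 genes (82.6%) and in 34.0% of all 33469 promoters of the table. The share of the 23 counts a gene once if any of its windows holds the motif. The share of all promoters counts each window, for 27457 symbols that are not limited to the genes tested here. The median GC content of the windows was 63.6% for these genes and 51.2% for all promoters, and its part in the difference was not tested. The E-box occurred in Insig1 and Scap, or 8.70% beside 5.59% of all promoters. The sterol regulatory element occurred in 0 of the 23 in either form, beside 0.409% and 0.974% of all promoters, which says only that these letters are not in these windows. Acly, Ebp, Idi1, Lss, Mvk, Nsdhl and both starts of Srebf1 are among those with a CCAAT box, while Cyp51, Dhcr7, Fads2 and Scap had none.

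A set of 5 windows is printed, chosen as follows. Hmgcs1 is the earliest sterol arm enzyme among the 30. Mvd is the 1 gene whose groups did not overlap by the probe used in the fit. Msmo1 is the demethylation step with the smallest interval of change. Insig1 is a retention protein, and Scd2, the RefSeq symbol of the probe named Scd, is a desaturase. Capitals mark CCAAT boxes, read as ATTGG where they lie on the opposite strand, and in Insig1 also the E-box. In GRCr8 they lie at chr2:53382054-53382303 on the plus strand, chr19:67414975-67415224 on the minus strand, chr16:29746863-29747112 on the plus strand, chr4:8057770-8058019 on the minus strand and chr1:253118127-253118376 on the plus strand, each ending at the base before the start.
Hmgcs1: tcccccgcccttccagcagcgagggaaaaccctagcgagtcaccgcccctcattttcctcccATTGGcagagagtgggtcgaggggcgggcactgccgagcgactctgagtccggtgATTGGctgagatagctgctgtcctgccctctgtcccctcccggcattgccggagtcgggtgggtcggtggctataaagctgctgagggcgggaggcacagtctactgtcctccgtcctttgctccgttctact
Mvd: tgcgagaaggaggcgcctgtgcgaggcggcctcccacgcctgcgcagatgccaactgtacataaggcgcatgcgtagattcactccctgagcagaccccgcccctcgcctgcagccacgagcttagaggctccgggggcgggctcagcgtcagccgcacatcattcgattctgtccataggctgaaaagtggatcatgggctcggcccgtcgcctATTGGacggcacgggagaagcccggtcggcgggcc
Msmo1: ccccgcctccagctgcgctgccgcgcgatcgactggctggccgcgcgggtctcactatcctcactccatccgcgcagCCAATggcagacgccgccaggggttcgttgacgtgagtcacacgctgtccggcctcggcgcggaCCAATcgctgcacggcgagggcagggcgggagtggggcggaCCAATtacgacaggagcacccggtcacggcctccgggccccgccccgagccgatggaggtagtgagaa
Insig1: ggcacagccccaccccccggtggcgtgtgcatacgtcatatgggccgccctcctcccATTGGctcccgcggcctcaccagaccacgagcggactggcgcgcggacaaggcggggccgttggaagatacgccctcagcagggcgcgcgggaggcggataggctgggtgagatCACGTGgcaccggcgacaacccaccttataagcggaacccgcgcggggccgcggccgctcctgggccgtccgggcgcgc
Scd2: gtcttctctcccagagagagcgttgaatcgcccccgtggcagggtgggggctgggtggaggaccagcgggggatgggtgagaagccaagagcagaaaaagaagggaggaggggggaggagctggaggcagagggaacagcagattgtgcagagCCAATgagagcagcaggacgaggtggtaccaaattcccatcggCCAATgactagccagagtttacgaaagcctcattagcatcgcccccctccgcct

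The early steps of the sterol arm lead from acetyl-CoA to farnesyl diphosphate. Hmgcs1, which joins acetyl-CoA to acetoacetyl-CoA, had 0.92, 0.81, 0.67 and 0.89 on TCDD arrays, against 0.80, 0.75, 0.93 and 0.49 on control arrays. Control replicate 4 was the lowest array, and the change of 0.08 (95% interval -0.16 to 0.32) became -0.0048 without it. Mvk and Pmvk, the kinases that phosphorylate mevalonate in turn, differed by 0.13 (SE 0.09) and 0.03 (SE 0.07), neither past the test.

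Mvd, the decarboxylase that forms isopentenyl diphosphate, had the smallest p of the 30 genes. It stood at -0.53, -0.52, -0.59 and -0.64 on the TCDD arrays, against -0.79, -0.77, -0.72 and -0.86 on the control arrays. The groups did not overlap, and the SD was 0.06 in each. The log2 change of 0.21 (SE 0.06, 95% interval 0.08 to 0.35), or 1.16-fold, had an exact two-sided permutation p of 0.029 and did not pass across all genes (limma, adjusted p = 0.31). By unadjusted p Mvd ranked 381st of 17364 genes. Its 60-base probe covers positions 52722404 to 52722463 of chromosome 19 (rn4). The change lay between 0.18 and 0.24 over all settings tried.

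Idi1, the isomerase that makes dimethylallyl diphosphate, was the least variable of the 30 on the TCDD arrays, at -0.89, -0.88, -0.86 and -0.89, against -0.95, -0.76, -0.90 and -1.12 in controls. Its SD was 0.01 after TCDD and 0.15 in controls, which was not tested, and its mean differed by 0.06 (SE 0.08). Fdps, the synthase of farnesyl diphosphate, had 0.45, 0.63, 0.70 and 0.76 on TCDD arrays and 0.38, 0.45, 0.52 and 0.53 on control arrays. TCDD replicate 1 lay among the controls, and the change of 0.17 (SE 0.08) did not pass (limma, adjusted p = 0.53). A second probe of Fdps had 0.41, 0.39, 0.45 and 0.53 after TCDD, all above the controls at 0.26, 0.26, 0.36 and 0.36. It gave a change of 0.13 (SE 0.06, exact two-sided permutation p = 0.029; limma, adjusted p = 0.50 over all probes kept). The probes lie on chromosome 2 in rn4, from 181170192 to 181170336 and from 181168650 to 181168691, both in spans that are not 60 bases long although the probes are.

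The later steps of the sterol arm turn farnesyl diphosphate into squalene and then into cholesterol. Fdft1, the squalene synthase, stood at 0.41, 0.53, 0.45 and 0.55 on TCDD arrays and at 0.57, 0.45, 0.60 and 0.72 on control arrays, a change of -0.10 (SE 0.07). Sqle, the epoxidase often counted as a control point of the route, had 0.64, 0.57, 0.47 and 0.71 after TCDD and 0.75, 0.60, 0.53 and 0.38 in controls. Its groups overlapped, with a change of 0.03 (SE 0.09, 95% interval -0.18 to 0.24). Lss, which closes the rings to lanosterol, and Cyp51, the cytochrome P450 that removes its 14-methyl group, each had a log2 change of -0.05 (SE 0.11 and 0.08). Cyp51 belongs to the P450 superfamily as do the dioxin-induced Cyp1 enzymes, and it had -0.65, -0.73, -0.83 and -0.91 on TCDD arrays, against -0.60, -0.77, -0.79 and -0.78 on control arrays.

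Msmo1, the methyl oxidase of lanosterol derivatives, gave the tightest bound of the sterol arm. It had 2.79, 2.74, 2.67 and 2.79 after TCDD and 2.83, 2.74, 2.69 and 2.74 in controls, so that the change was -0.0014 with a 95% interval from -0.14 to 0.13. The other enzymes of this stretch differed by -0.17 (Tm7sf2, a sterol reductase, SE 0.15), 0.12 (Nsdhl, a sterol dehydrogenase, SE 0.11), -0.03 (Hsd17b7, a keto-reductase, SE 0.11) and -0.03 (Ebp, a sterol isomerase, SE 0.07). Dhcr7, the reductase of the last step, had -1.61, -2.14, -1.76 and -1.41 on TCDD arrays, against -1.74, -1.90, -1.94 and -1.97 on control arrays. Its TCDD values spread on both sides of the controls, at an SD of 0.31 beside 0.10, and the change was 0.16 (SE 0.15). It was 0.29 without TCDD replicate 2 and 0.05 without TCDD replicate 4.

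Stard4, a carrier of cholesterol in the cytosol and a known SREBP target, had the largest difference of the 30 genes. By a probe printed on 10 spots it stood at -0.73, 0.02, -0.59 and -0.95 on the TCDD arrays, against -1.23, -1.09, -1.06 and -0.79 on the control arrays. TCDD replicate 2 was the highest array, and TCDD replicate 4 lay among the controls. The log2 change was 0.48 (SE 0.20, 95% interval 0.02 to 0.95), or 1.40-fold, and did not pass (limma, adjusted p = 0.45; exact two-sided permutation p = 0.057). Without TCDD replicate 2 the change was 0.29. A second probe on 1 spot had -4.51, -4.13, -4.41 and -4.94 after TCDD and -4.80, -4.91, -5.44 and -4.82 in controls, a change of 0.49 (SE 0.20; exact two-sided permutation p = 0.11). Both probes had TCDD replicate 2 highest and TCDD replicate 4 lowest in the TCDD group. They lie on chromosome 18 in rn4, the brighter from 25638729 to 25638788 and the other across a span from 25645901 to 25648404. These positions do not overlap, and which transcripts each probe detects was not determined. The starts of the 2 probes, the first 30 of 60 bases, also differ.
Stard4 brighter probe: ccagggattatgcagatactgctgtgtact
Stard4 dimmer probe: cctcggaagagttcaatgggtatctatata

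**Figure D2:**
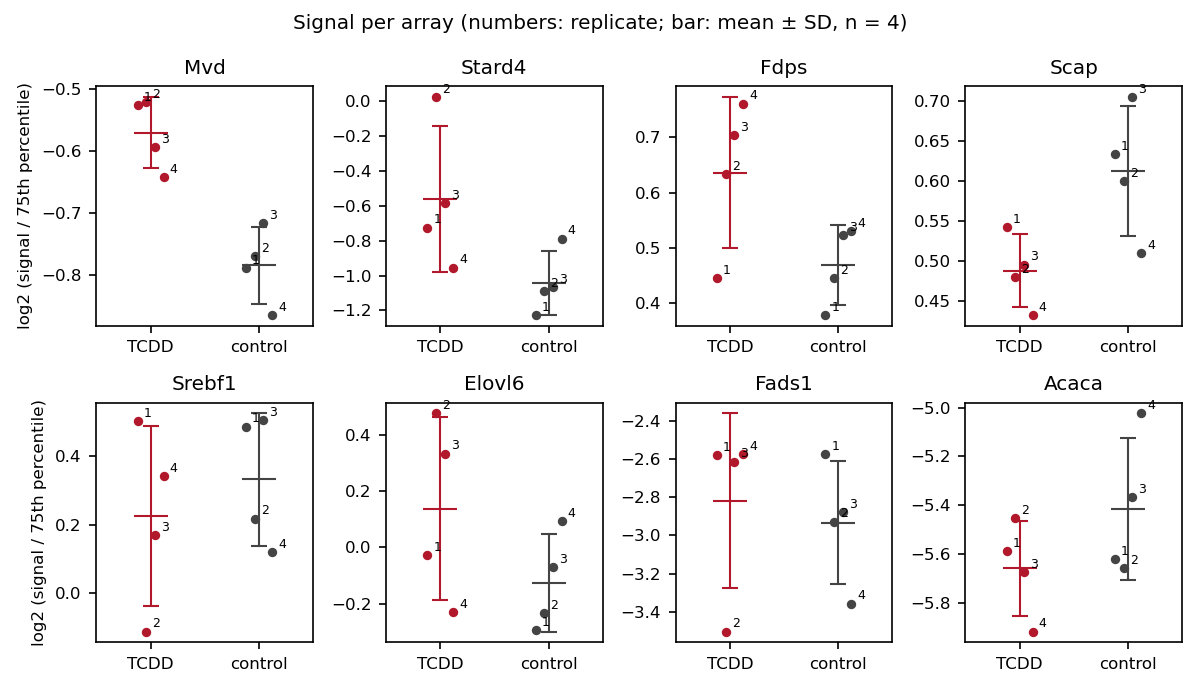
Log2 signal over the array's 75th percentile for 8 genes, TCDD left and control right, with 1 point per array numbered by replicate and the mean ± SD (n = 4). Groups do not overlap for Mvd; TCDD replicate 2 is the highest array for Stard4 and Elovl6 and the lowest for Srebf1 and Fads1.

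The fatty acid arm starts with the supply of acetyl-CoA. Acly, which makes it from citrate, had 3.19, 3.20, 3.04 and 3.23 on TCDD arrays and 3.10, 3.07, 3.11 and 3.20 on control arrays, a change of 0.04 (95% interval -0.11 to 0.19). Acss2, which makes it from acetate, had -1.39, -1.49, -1.21 and -1.18 after TCDD and -1.22, -1.27, -1.47 and -1.33 in controls, a change of 0.0059 (SE 0.09). Acaca, the carboxylase that forms malonyl-CoA, had -5.59, -5.45, -5.67 and -5.92 on TCDD arrays, against -5.62, -5.66, -5.37 and -5.02 on control arrays. Its change of -0.24 (SE 0.16, limma, adjusted p = 0.66) was the lowest value among the 30 and became -0.11 without control replicate 4, its highest array.

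Fasn, the synthase that builds palmitate, stood at 1.23, 1.14, 1.17 and 1.56 after TCDD and at 1.24, 1.32, 1.54 and 1.58 in controls. TCDD replicates 1 to 3 lay below every control, TCDD replicate 4 lay among the higher controls, and the change was -0.15 (SE 0.12, limma, adjusted p = 0.73; exact two-sided permutation p = 0.23). Elovl6, which lengthens palmitate to stearate, had -0.03, 0.48, 0.33 and -0.23 on TCDD arrays, against -0.29, -0.23, -0.07 and 0.09 on control arrays. The groups overlapped, and the change was 0.26 (SE 0.17, 95% interval -0.12 to 0.64), or 0.15 without TCDD replicate 2. A second, dimmer probe of Elovl6, whose 2 highest arrays were also TCDD replicates 2 and 3, gave 0.15 (SE 0.22).

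The desaturases add double bonds. The probe named Scd had 3.04, 2.79, 2.84 and 3.15 after TCDD and 2.95, 2.88, 2.96 and 2.69 in controls, a change of 0.08 (SE 0.10). By its accession this probe reads the gene that RefSeq now calls Scd2, on chromosome 1 from 249370837 to 249370896 in rn4. The probe named Scd1 reads what RefSeq now calls Scd, on chromosome 1 from 249458860 to 249458919, and it was not among the 30. It had -5.02, -5.08, -4.67 and -4.68 on TCDD arrays, against -4.67, -5.15, -5.36 and -5.63 on control arrays, a change of 0.34 (SE 0.20, limma, adjusted p = 0.62). The starts of both probes, 30 of 60 bases, are given because the names are so easily confused, and at their best ungapped alignment the full probes shared 22 bases.
Scd (RefSeq Scd2): gggatcctcagcagaggagtatttaagtcc
Scd1 (RefSeq Scd): gccaaagtgcaagcctacctactcactgcc

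Fads1 and Fads2, the delta-5 and delta-6 desaturases of polyunsaturated fatty acids, lie beside each other in the genome. Fads1 had -2.58, -3.50, -2.61 and -2.58 on TCDD arrays, against -2.57, -2.93, -2.88 and -3.36 on control arrays. TCDD replicates 1, 3 and 4 lay close together near the upper end and replicate 2 lay below every other array, so the change was 0.12 (SE 0.24) with it and 0.34 without it. Fads2 had -3.84, -4.23, -3.93 and -3.75 after TCDD and -3.88, -3.97, -3.80 and -4.10 in controls, a change of -0.0011 (95% interval -0.27 to 0.26). TCDD replicate 2 was again the lowest array.

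Across the 30 genes the arrays at the extremes were not spread evenly. Nor were they over all genes tested, where an array was the lowest for 7.81% to 19.1% of genes. TCDD replicate 2 was the lowest of the 8 arrays for 8 genes, Lss, Tm7sf2, Dhcr7, Srebf1, Acss2, Fasn, Fads1 and Fads2, of which 4 belong to the 8 of the fatty acid arm. It was the lowest for 11.7% of all genes tested. The same array was the highest for Mvd, Stard4 and Elovl6. Control replicate 4 was the lowest for 7 of the 30 genes, 6 of them in the sterol arm, and for 19.1% of all genes. TCDD replicate 4 was the highest for 9 of the 30 genes, 4 of them in the fatty acid arm, and for 16.7% of all genes. TCDD replicate 2 and control replicate 4 were the dimmest of the 8 arrays, with 75th percentiles of 765 and 805. They also had the smallest shares of spots well above background (71.4% and 71.1%). Over the genes tested, their deviations from the group mean correlated at 0.21, the highest of the TCDD and control pairs. The part of array brightness in these extremes was not tested. As a median over the fatty acid arm, relative to each gene's mean over the 8 arrays, TCDD replicates 1 to 4 stood at 0.0068, -0.14, -0.03 and 0.16 and control replicates 1 to 4 at -0.0039, -0.04, 0.03 and 0.03. The SD of these medians was 0.13 among TCDD arrays and 0.03 among control arrays. In the sterol arm it was 0.05 and 0.04, and in the regulators 0.06 and 0.06. The same SDs, TCDD then control, were 0.09 and 0.03 for the sterol uptake and trafficking list described below. They were 0.05 and 0.01 for other sterol synthesis, 0.06 and 0.04 for other fatty acid synthesis, and 0.07 and 0.05 for fatty acid oxidation. For SREBP processing they were 0.03 and 0.04, the wider spread being among controls. The spread between the groups was not tested.

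**Figure D3:**
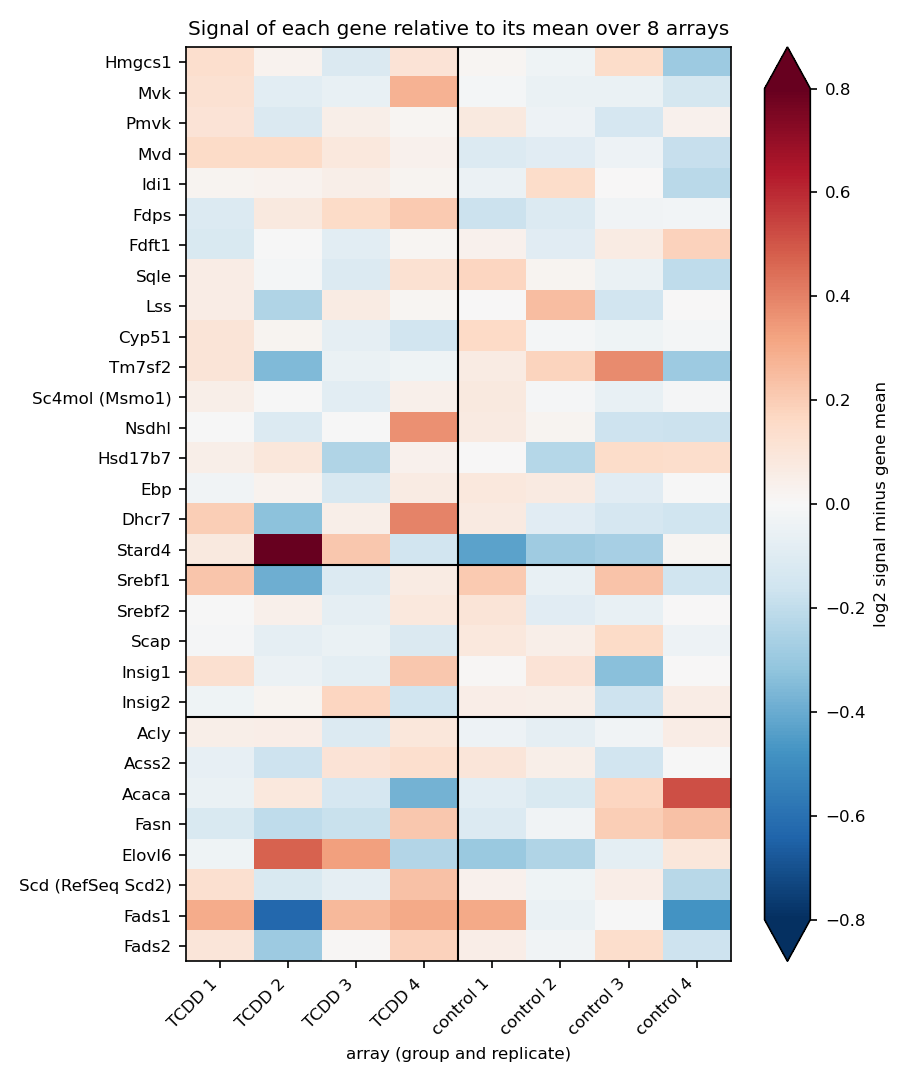
Log2 signal of each of the 30 genes minus its mean over the 8 arrays, genes in rows by arm and arrays in columns, TCDD left of the vertical line and control right; red is above and blue below the gene's mean. TCDD replicate 2 is dark red for Stard4 and blue for Fads1, Fads2, Srebf1, Tm7sf2 and Dhcr7.

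**Figure D4:**
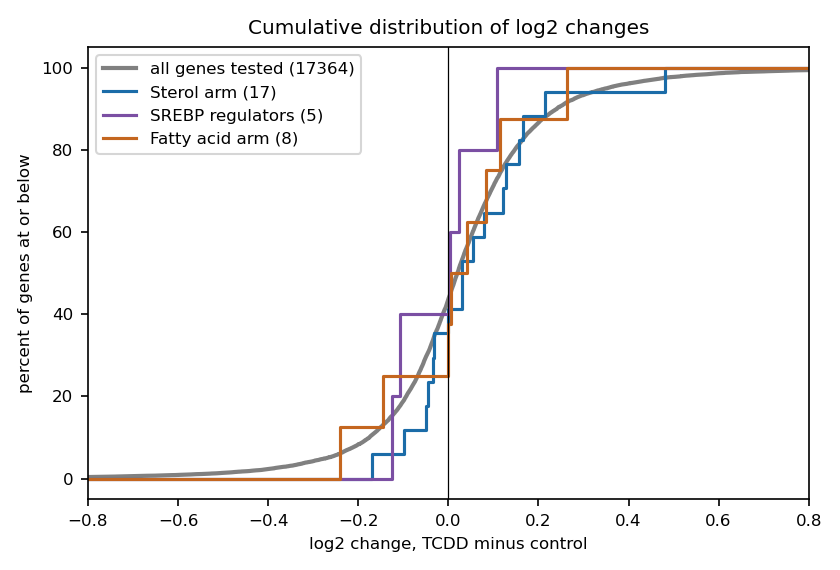
Percent of genes at or below each log2 change, TCDD minus control, for all 17364 genes tested and for the 3 groups of members. The steps of the sterol arm, regulators and fatty acid arm cross 50 percent close to the curve of all genes, at medians of 0.03, 0.0030 and 0.02 beside 0.02.

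Cell markers were read on the same arrays. All 7 hormone genes of the anterior lobe were measured, at summed signals of 1277 to 1652 times the 75th percentile on TCDD arrays and 1433 to 1444 on control arrays. The brightest probes carry such a sum. By log2 change Fshb differed by -0.71 (SE 0.25, limma, adjusted p = 0.38) and the other hormone genes by -0.08 to 0.18. Among posterior lobe genes Avp differed by -1.41 (SE 0.52, limma, adjusted p = 0.41) and the others measured by -0.19 to 0.11. Of 9 myelin genes, made by glia that synthesise much cholesterol, 8 were measured and summed to 1.70 to 1.83 after TCDD and 1.49 to 2.32 in controls, and Mog was not well above background. Of 8 adipocyte genes 4 were measured, at sums of 0.68 to 1.59 after TCDD and 0.64 to 1.16 in controls. Lep, Plin1, Cidec and Retn were not well above background on enough arrays. The 4 measured differed by 0.88 (Adipoq, SE 0.26), 0.18 (Cfd, SE 0.37), 0.13 (Fabp4, SE 0.96) and -0.60 (Cidea, SE 0.49), none past the test. All 4 TCDD values of Adipoq lay above the 4 control values, a pattern held by 5.18% of all genes. Fabp4 was well above background on only 2 TCDD and 3 control arrays. Among TCDD arrays, replicate 2 was the highest for Adipoq and Fabp4 and the lowest for Cfd and Cidea. The 6 measured erythrocyte genes of 9 listed all had higher means after TCDD, none past the test (limma, smallest adjusted p = 0.12), summing to 438 to 665 after TCDD and 304 to 551 in controls. On TCDD replicate 2 the median relative to the mean of 8 arrays was 0.63 for erythrocyte genes, -0.27 for posterior lobe genes, -0.28 for fibroblast genes and -0.14 for myelin genes. On control replicate 4, the lowest array for 6 sterol genes, the medians in the same order were 0.28, -0.55, -0.42 and -0.17. The other controls had -0.59 to -0.49 for erythrocyte genes and -0.02 to 0.32 for posterior lobe genes. In the remaining lists, TCDD replicate 2 and then control replicate 4 had 0.27 and -0.37 (adipocytes), -0.33 and 0.17 (hepatocytes) and -0.32 and -0.00068 (leukocytes). They had -0.13 and -0.26 for folliculostellate, -0.21 and -0.19 for endothelial and 0.08 and -0.0015 for anterior lobe hormone genes. The part of these cell types in the values of the 30 genes was not tested, nor was that of the low brightness of TCDD replicate 2 and control replicate 4.

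The rest of the pathway was read through 5 further lists of genes, and none of their members passed the test (limma). Their counts of higher and lower genes stand beside the 56.4% of all genes tested that were higher. A single value with its SE, here and in the next paragraph, is a log2 change, TCDD minus control. Of 11 measured genes of sterol synthesis outside the 30, 7 were higher and 4 lower, with a median log2 change of 0.01. Acat1, the thiolase of mitochondria, stood at 0.20 (SE 0.07). At the other end were Fdxr, a reductase that feeds mitochondrial P450 enzymes, at -0.10 (SE 0.19) and Dhdds, of dolichol synthesis, at -0.04 (SE 0.06). Lbr, a reductase of the sterol ring system, was not well above background on enough arrays. Of 11 measured genes that process SREBP or turn it over, 5 were higher and 6 lower, with a median of -0.0014. Rnf145, a ubiquitin ligase that acts on Scap, had -2.50, -2.03, -2.37 and -2.40 on TCDD arrays, all above -2.55, -2.64, -2.70 and -2.72 on control arrays (change 0.32, SE 0.10, limma, adjusted p = 0.36). Sec23a, a coat protein of the vesicles that carry Scap, stood at 0.23 (SE 0.12), Paqr3, a Golgi anchor of Scap, at -0.15 (SE 0.12) and Syvn1, a ubiquitin ligase of the endoplasmic reticulum, at -0.12 (SE 0.12).

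For uptake, trafficking, esterification and efflux of sterol, 26 genes were measured, 11 higher and 15 lower, with a median of -0.02. Vldlr, the receptor for very-low-density lipoprotein, had -4.48, -4.60, -4.63 and -4.44 after TCDD, all above -4.79, -5.05, -5.21 and -4.90 in controls. Its change of 0.45 (SE 0.10) had the smallest adjusted p of the 5 lists and did not pass (limma, 0.22), and it was 0.07 with normexp and quantile normalization. Lcat, which esterifies cholesterol in plasma, stood at -0.31 (SE 0.18) and Lrp1, a lipoprotein receptor, at -0.24 (SE 0.11). Of 31 other genes of fatty acid and glycerolipid synthesis 19 were higher and 12 lower, with a median of 0.04. Beside Scd1, given above, Elovl7, an elongase, stood at 0.27 (SE 0.11), Lpin2, a phosphatidate phosphatase, at -0.18 (SE 0.12) and Fads6, named as a desaturase, at -0.19 (SE 0.24). Of 30 genes of fatty acid oxidation 20 were higher and 10 lower, with a median of 0.04. Bdh1, a dehydrogenase of ketone bodies, stood at 0.49 (SE 0.17, limma, adjusted p = 0.39), or 0.19 with normexp and quantile normalization, and Acot1, a thioesterase, at 0.28 (SE 0.19). Cpt1a, which admits fatty acids to mitochondria, stood at -0.29 (SE 0.15) and Cpt2, its partner on the inner membrane, at -0.16 (SE 0.10).

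The 2 listed names without a spot of their own were followed through current RefSeq symbols, a step added after the data were seen. Acat2, the thiolase that makes acetoacetyl-CoA in the cytosol, is listed as Acat3. It had 1.53, 1.19, 1.67 and 1.45 on TCDD arrays, against 1.22, 1.26, 0.42 and 1.07 on control arrays. TCDD replicate 2 lay among the controls, and control replicate 3 was far below the rest, giving a change of 0.47 (SE 0.19, limma, adjusted p = 0.46 over all probes kept). A second probe named Acat3 gave 0.69 (SE 0.36), again with control replicate 3 lowest. The probes lie apart on chromosome 1 in rn4, from 41940014 to 41940073 and from 42007241 to 42007300. Whether both read the same gene was not determined. Sc5d, the sterol desaturase listed as Sc5dl, had -0.54, -0.41, -0.52 and -0.60 after TCDD and -0.67, -0.68, -0.61 and -0.54 in controls, a change of 0.11 (SE 0.07). With both added, 0 of 19 genes of the sterol arm passed, and with Scd1 in place of Scd 0 of 8 of the fatty acid arm did.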

How the data were processed

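Cy3-labelled cRNA made from pituitary total RNA was measured on 8 single-colour Agilent arrays, per the labels' protocols. The authors deposited each array's scanner output, from version 10.7.1.1 of Agilent's Feature Extraction software (per the file headers), whose intensities are linear, background-subtracted and detrended within the array. A deposited table of intensities on 1 shared distribution (median 56.3 in each column) served as an alternative; how it was made is not given in the sources used here.

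Processed signals were put on a log2 scale and centred on the array's 75th percentile over 42877 non-control spots (765 to 932; 71.1% to 73.9% of spots well above background). The number of arrays limits the precision. Outlier spots were set to missing, spots of a probe averaged, and probes kept if well above background on 4 or more arrays. For a probe with several spots, the majority decided, ties counting as above. Of a gene's probes the brightest was used, genes being keyed by the name in the files. TCDD and control were compared by limma (3.58.1, R 4.3.3) in a two-sided test with no covariate and Benjamini-Hochberg adjustment over 17364 genes and a threshold of 0.05. Exact permutation tests used 70 assignments.

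Members, gene lists and tests were chosen with earlier results of these data known. The rule for named genes takes every member, and of each pathway list the 2 largest rises and 2 largest falls. Some genes that this rule names are not reported here. Of same-numbered TCDD and control arrays, deviations from the group mean correlated at -0.02, -0.07, -0.03 and -0.10 for numbers 1 to 4, so numbers were not taken as pairs.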

Additional observations from a re-analysis of the deposited data

Results flagged for a closer look

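In 4 of 60 groups of 4 arrays checked (6.67%, where chance gives about 5%), a single array stood far from the other three, judged by its gap to the nearest array as a part of the group's whole range. These were Fads1 and Lss on TCDD replicate 2 (0.958 and 0.845), both low, Insig2 on control replicate 3 (0.957), low, and Cyp51 on control replicate 1 (0.888), high. Cyp51 was read by a probe of 10 spots, the other genes by probes of 1 spot each. By the dimmer probe of Insig2 control replicate 3 did not stand apart, at -2.59 beside -2.58, -2.56 and -2.71 on the other control arrays.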

How the results depend on the processing

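No gene of the sterol arm, regulators or fatty acid arm passed the test under any of the 21 alternatives (0 called; smallest adjusted p 0.31, limma). Of 574 values of single members under the alternatives, 532 kept their direction and 42 changed sign, in 15 genes. The arm medians ranged between -0.0077 and 0.06 (sterol), -0.05 and 0.02 (regulators) and -0.02 and 0.08 (fatty acid). The count of all genes called, 14 in the main setting, was 9 with median centring, 4 with an intensity trend in the variance, 1 with quantile normalization, 1 in the deposited table and 0 with normexp and quantile (limma, 1918 at an unadjusted p under 0.05). With the replicate block it was 0 (limma, 1513 at an unadjusted p under 0.05), and no TCDD array correlated best with the control array of its own number. Leaving out 1 array gave 0 to 11. Lowest, at 0 (limma, 1631 and 1553 at that unadjusted p), were the fits lacking TCDD replicate 1 or control replicate 3; those lacking control replicate 1 or 2 gave 1, TCDD replicate 2 or 4 gave 3, and TCDD replicate 3 gave 6. At that unadjusted p, 1347 genes were higher and 512 lower in the main setting, 754 and 814 with median centring, 1005 and 709 with quantile, 1071 and 847 with normexp and 936 and 797 in the deposited table.

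Some values changed sign with the scaling. With quantile normalization they were Insig2 at -0.011 and Acss2 at -0.0068. With median centring they were Pmvk at -0.0085, Sqle at -0.0077, Srebf2 at -0.016, Insig2 at -0.035 and Acss2 at -0.033. With normexp and quantile they were Sqle at -0.040, Msmo1 (listed as Sc4mol) at 0.017, Hsd17b7 at 0.014, Srebf2 at -1.2e-04, Acly at -0.0041, Acss2 at -0.038 and Scd1 at -0.026. In the deposited value table they were Insig2 at -0.019 and Acss2 at -0.015. Leaving out 1 array moved across 0 the values of Pmvk (-0.010 to 0.073), Lss (-0.11 to 0.023), Srebf1 (-0.20 to 0.0061), Insig2 (-0.055 to 0.056), Fads2 (-0.063 to 0.095), Sc4mol (-0.021 to 0.026), Hsd17b7 (-0.11 to 0.041), Ebp (-0.066 to 0.0058), Acss2 (-0.043 to 0.062), Sqle (-0.031 to 0.093), Srebf2 (-0.0047 to 0.061), Fdxr (-0.22 to 0.093), Hmgcs1 (-0.0048 to 0.14), Idi1 (-0.0074 to 0.11) and Fads1 (-0.025 to 0.34). The cause was not tested.

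Among values that kept their sign, normexp and quantile brought these, among others, closer to 0 by over 1.5 times: Fdps 0.098, Nsdhl 0.033, Acaca -0.088, Sec23a 0.14, Lcat -0.18, Elovl7 0.11, Lpin2 -0.027, Vldlr 0.071 and Bdh1 0.19. Leaving out 1 array moved by over 1.5 times, without a change of sign and among others, Mvk (0.056 to 0.18), Nsdhl (0.021 to 0.18), Insig1 (0.013 to 0.16), Tm7sf2 (-0.29 to -0.070), Dhcr7 (0.049 to 0.29) and Acaca (-0.32 to -0.11). Slide and group coincide in every setting, and the number of arrays limits the precision.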
